A study of Homo sapiens with 9 samples.

Results

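A set of 10 genes of angiogenesis was followed through 3 cell states: a sensitive parental lung cancer line and its drug-resistant derivative on and off drug. These were the growth factor genes VEGFA, VEGFB, VEGFC, PGF and PDGFA, the secreted factor gene ANGPTL4, the receptor genes NRP1, NRP2 and TIE1, and the junction gene ESAM. They are 10 of the 60230 genes in the deposited tables, and all 10 were among the 17307 genes that passed the filter on low counts. The 10 genes were selected on measured values of these same libraries, so their levels, fold changes and calls below are a description, with no test. Poly(A) RNA was sequenced from NCI-H358, an established human lung cancer line, in 9 libraries. The study addresses acquired resistance to sotorasib, a targeted cancer drug.

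The resistant derivative, NCI-H358-R, is 1 line, obtained by keeping NCI-H358 in 250 nM sotorasib for about 2 months until it grew readily there. Resistant cells on drug (3 libraries) were collected 4 days after dosing with 250 nM sotorasib. Resistant cells off drug (3 libraries) were profiled without the compound, after an interval that the labels leave unstated. Parental cells (3 libraries) were sensitive and untreated. No parental cells on drug were profiled, so on drug against parental differs in both line and drug, which cannot be told apart. All were grown in RPMI-1640 with 10% fetal bovine serum. The libraries of a state are described as biological replicates. Separate cultures are not mentioned, and a p-value here therefore speaks only of the variation among 3 libraries per state, some or all of which could be technical. The off-drug libraries serve in the comparisons with both other states, and the parental libraries serve in 2 comparisons as well, so the comparisons are not independent of each other.

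Vascular endothelial growth factors are secreted proteins that drive endothelial cells to divide, migrate and form vessels. VEGF-A is the chief blood vessel factor and a classical target of hypoxia-inducible factors, VEGF-C mainly drives lymphatic vessels, and placental growth factor (PGF) and VEGF-B bind the receptor FLT1. PDGF-A acts on PDGFRA of mesenchymal cells, and ANGPTL4 is a secreted inhibitor of lipoprotein lipase that is induced by hypoxia and by PPAR factors. The neuropilins NRP1 and NRP2 are coreceptors for VEGFs and class 3 semaphorins and are made by many carcinomas. TIE1 is an orphan receptor tyrosine kinase that partners with the angiopoietin receptor TEK, and ESAM is an adhesion protein of endothelial tight junctions and platelets. Both are usually taken as endothelial genes, so their RNA in an epithelial tumour line is out of the usual place.

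The libraries held 33394741 to 34727826 estimated counts on drug, 25728092 to 33988889 off drug and 25698500 to 31787105 in parental cells, so that 3 counts corresponded to 0.0775 to 0.123 CPM (counts scaled for library size and by TMM factors, which correct for composition). The on-drug libraries stood apart in composition, with TMM factors of 1.113 to 1.124, against 0.9171 to 0.9499 off drug and 0.9372 to 0.9717 in parental cells. They also held 24191 to 24360 genes above 0, against 22081 to 22957 in the other 6 libraries. Scaling by library size only moved the median of all genes to 0.27 (log2, on drug over off drug) and 0.24 (on drug over parental), against 0.02 in both with TMM. The share of called genes that were higher was then 68.5 and 64.3% in those comparisons, against 50.1 and 50.4% with TMM. With upper-quartile factors the share was 60% in the first of them and 43.4% for off drug over parental, which had 51.6% with TMM. With limma on log2(TPM + 1) it was 64.1% for off drug over parental, 64.2% for on drug over off drug and 70% for on drug over parental. Statements of higher and lower below are relative to the median gene under TMM.

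VEGFA had the highest TPM (a level scaled for transcript length and depth) of the 10 genes in the off-drug and parental states, and its level split the 3 states without overlap. Its 3 libraries gave 76, 66.8 and 72 CPM on drug, 836, 865 and 817 CPM off drug and 428, 463 and 416 CPM in parental cells. On drug the level was 11.7-fold lower than off drug (log2 fold change −3.55 ± 0.09, SE) and 6.08-fold lower than in parental cells (−2.60 ± 0.08). Off-drug cells lay 1.93-fold above parental cells (0.95 ± 0.08). The gene lies on chromosome 6 from 43770184 to 43786487 on the plus strand (GENCODE 29, GRCh38). The relative length of its transcripts, that is the deposited estimated count over TPM set against the median gene of the library, was 1.47 to 1.52 on drug, 1.56 to 1.62 off drug and 1.57 to 1.64 in parental cells. The same ratio was also lower on drug for ANGPTL4 (values below) and for PGF, at 0.883 to 0.902 on drug, 0.933 to 0.973 off drug and 0.933 to 0.987 in parental cells. It was higher on drug for NRP2 (2.99 to 3.15 on drug, 2.74 to 2.91 off drug and 2.65 to 2.87 in parental cells). Single transcripts were not analysed here.

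VEGFB (chromosome 11, 64234538 to 64238793, plus strand) was the flattest of the 10 genes. It stood at 31.4, 30 and 37.5 CPM on drug, 34.4, 33.4 and 37.6 CPM off drug and 28, 30.4 and 31.8 CPM in parental cells. The on-drug range overlapped both others, and off-drug cells lay above parental cells by a log2 difference of 0.23 ± 0.10 that was not called. It was called with a replicate block (0.23), in a fit of only these states (0.21), without parental replicate 3 (0.27) and with limma on log2(TPM + 1) and log2(TPM + 0.1) (0.33 and 0.35). The log2 fold change on drug over off drug was −0.09 ± 0.10 and over parental 0.13 ± 0.10. This flatness depended on the scale. In TPM the gene stood at 31 to 36.7 on drug, 23.8 to 29.8 off drug and 19.5 to 22.4 in parental cells, with no overlap, and its relative transcript length was 0.543 to 0.598 on drug, 0.594 to 0.762 off drug and 0.628 to 0.71 in parental cells.

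VEGFC (chromosome 4, 176683538 to 176792727, minus strand) was higher in both resistant states than in parental cells. It had 10.2, 9.53 and 9.96 CPM on drug, 11.1, 12.7 and 11.6 CPM off drug and 3.76, 4.09 and 3.65 CPM in parental cells. The excess over parental cells was 2.58-fold on drug (1.37 ± 0.12) and 3.07-fold off drug (1.62 ± 0.12). Between the resistant states the log2 difference was only −0.25 ± 0.10. That difference was called, but the call was lost when any on-drug or off-drug library or parental replicate 2 was left out (−0.30 to −0.20), and the difference was 0.00 with library size only.

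PGF (chromosome 14, 74941834 to 74955784, minus strand) fell into 3 separate levels with both resistant states above parental cells. Its values were 12, 12.6 and 12.1 CPM on drug, 26, 26.3 and 26.6 CPM off drug and 4.71, 6.81 and 7.04 CPM in parental cells. Off drug it was 4.27-fold above parental cells (2.09 ± 0.12), and on drug it was 1.98-fold above them (0.99 ± 0.13) and 2.15-fold below off-drug cells (−1.10 ± 0.11). VEGFC and PGF were thus higher on drug than in parental cells, whereas VEGFA was lower.

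PDGFA (chromosome 7, 497258 to 520296, minus strand) resembled VEGFA in order but not in size. It stood at 3.74, 3.1 and 3.83 CPM on drug, 21.4, 20.4 and 22.3 CPM off drug and 5.5, 5.69 and 6.33 CPM in parental cells, with no overlap between states. Off drug it was 3.66-fold above parental cells (1.87 ± 0.11). On drug it was 6-fold below off-drug cells (−2.59 ± 0.12) and 1.64-fold below parental cells (−0.71 ± 0.12).

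**Figure D1:**
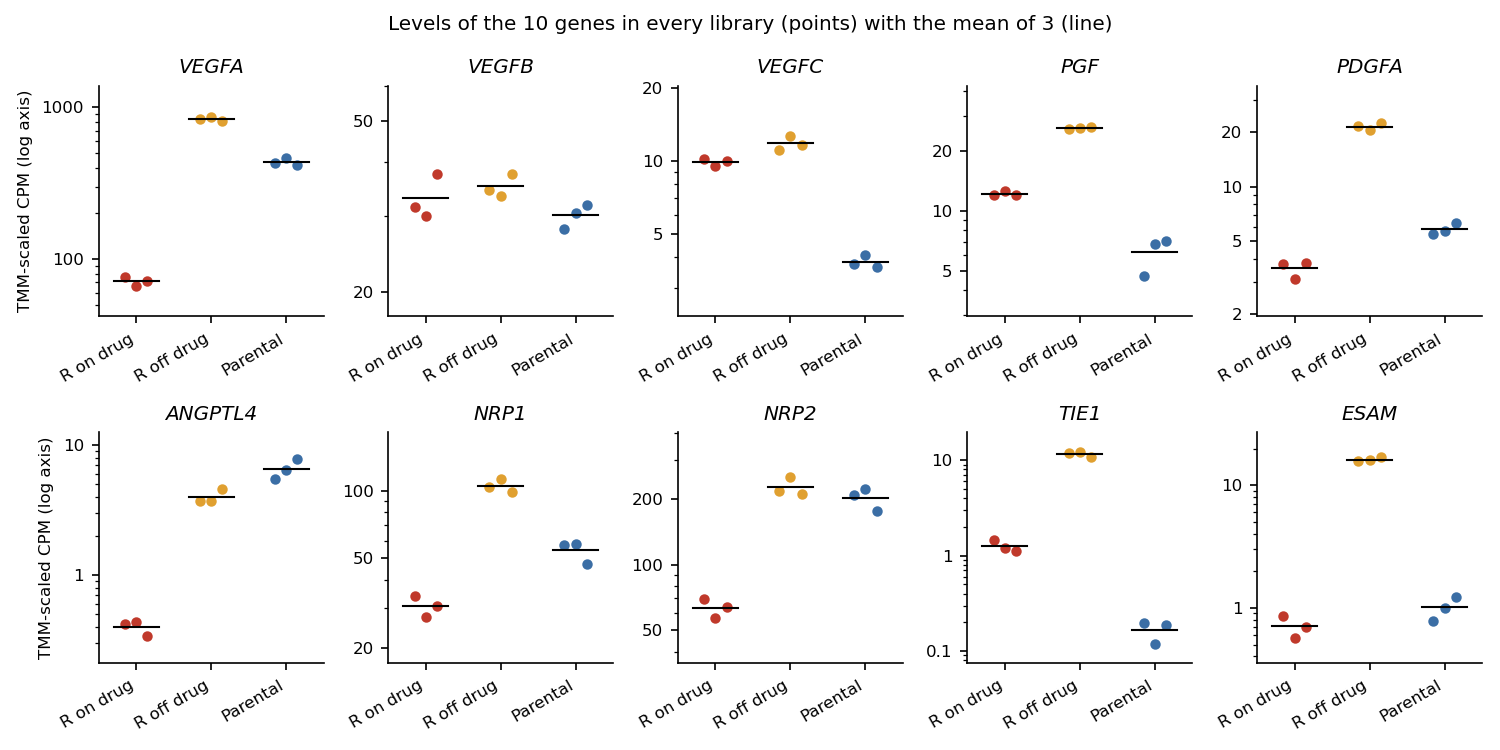
Level of each of the 10 genes in TMM-scaled CPM (log axis, a separate range per panel) in 3 libraries each of resistant (R) cells on drug, resistant cells off drug and parental cells, with points for libraries and a line at the mean. VEGFA runs between 66.8 and 865 CPM, whereas VEGFB stays between 28 and 37.6 CPM.

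The makeup of the VEGF ligand transcripts differed between states as well as their sum. Summed over VEGFA, VEGFB, VEGFC and PGF, the level was 74.9 ± 5.46 TPM on drug, 313 ± 28.6 TPM off drug and 152 ± 9.17 TPM in parental cells (SD, n = 3 each). VEGFA made up 37.4 ± 2.74% of that sum on drug, 85.3 ± 0.1% off drug and 83.3 ± 1.82% in parental cells. VEGFB held the largest mean share on drug, 44.7 ± 3.13%, against 8.5 ± 0.176% off drug and 13.8 ± 1.5% in parental cells. In on-drug replicate 1 VEGFB and VEGFA were close, at 41.3 and 40.5%. In CPM, which is not scaled for transcript length, VEGFA was above VEGFB on drug (71.6 ± 4.58 and 33 ± 4.01). PGF held 10.8 ± 0.666% on drug, 4.49 ± 0.136% off drug and 1.96 ± 0.409% in parental cells, and VEGFC 7.11 ± 0.37, 1.68 ± 0.102 and 0.974 ± 0.0174% in the same states. The sum counts transcripts, and no protein was measured.

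**Figure D2:**
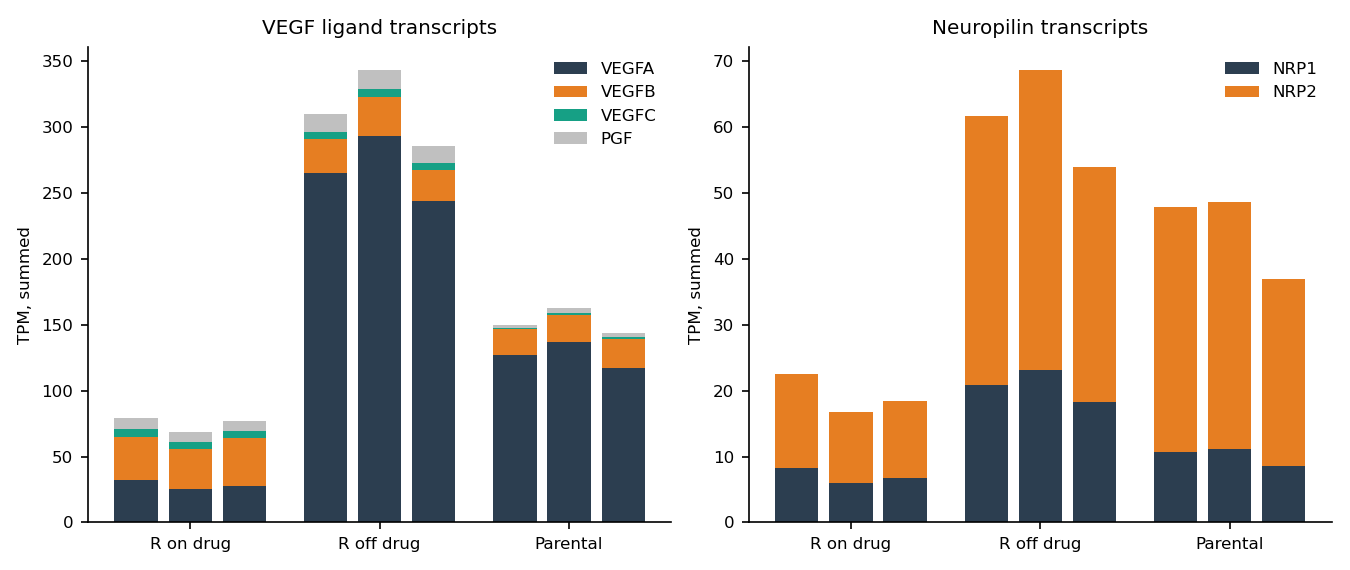
Stacked TPM of the VEGF ligand genes (left) and of the neuropilin genes (right) in each library, 3 bars per state, from resistant (R) cells on drug to parental cells. The VEGFA segment is the largest in every off-drug and parental bar and is 25 to 32 TPM in the on-drug bars, and NRP2 is the larger segment in every neuropilin bar.

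ANGPTL4 (chromosome 19, 8363289 to 8374373, plus strand) was the 1 gene of the 10 with its highest mean in parental cells. It had 0.418, 0.431 and 0.336 CPM on drug, from 13 to 16 estimated counts a library. Off drug the values were 3.69, 3.73 and 4.59 CPM, and in parental cells 5.5, 6.45 and 7.82 CPM, so the states did not overlap. On drug it was 10.1-fold below off-drug cells (−3.33 ± 0.23) and 16.5-fold below parental cells (−4.05 ± 0.23), and off-drug cells lay 1.64-fold below parental cells (−0.71 ± 0.18). The few counts on drug limit that ratio to between 12.2 and 23 below parental cells from counting error alone (95% Clopper-Pearson interval on summed counts). Such intervals cover counting error only, since reads without molecular identifiers are not independent molecules. The relative transcript length of ANGPTL4 was 0.637 to 0.844 on drug, 0.971 to 1.02 off drug and 0.954 to 1.03 in parental cells. The size of its on-drug difference therefore depended on the scale. In TPM it stood at 0.32 ± 0.0559 on drug, 2.03 ± 0.138 off drug and 3.12 ± 0.523 in parental cells (SD, n = 3 each).

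The neuropilin genes were lower on drug than in either other state. NRP1 (chromosome 10, 33177492 to 33336262, minus strand) had 34.1, 27.5 and 30.8 CPM on drug, 104, 113 and 98.5 CPM off drug and 57.2, 58.1 and 47.4 CPM in parental cells. It was 3.41-fold lower on drug than off drug (−1.77 ± 0.10), 1.76-fold lower on drug than in parental cells (−0.81 ± 0.10) and 1.94-fold higher off drug than in parental cells (0.96 ± 0.10). NRP2 (chromosome 2, 205681990 to 205798133, plus strand) had 69.6, 56.8 and 64 CPM on drug, 217, 251 and 210 CPM off drug and 207, 222 and 175 CPM in parental cells. Its off-drug and parental libraries overlapped (0.17 ± 0.10, not called), whereas on drug it was 3.56-fold lower than off drug (−1.83 ± 0.11) and 3.17-fold lower than in parental cells (−1.66 ± 0.11). In TPM the neuropilins together stood at 19.3 ± 3.02 on drug, 61.4 ± 7.4 off drug and 44.4 ± 6.45 in parental cells (SD, n = 3 each). NRP1 took 36.2 ± 0.3% of that sum on drug and 33.8 ± 0.1% off drug, against 22.9 ± 0.493% in parental cells, so the balance between the coreceptors was shifted towards NRP1 in both resistant states.

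TIE1 (chromosome 1, 43300993 to 43323108, plus strand) had the largest off-drug excess over parental cells of the 10 genes and was close to the limit of detection in parental cells. The libraries gave 1.46, 1.21 and 1.11 CPM on drug, 11.9, 12.2 and 10.9 CPM off drug and 0.196, 0.12 and 0.186 CPM in parental cells, the last from 6, 3 and 5 estimated counts. The fitted difference off drug over parental was 6.06 ± 0.23 (log2). From summed counts, 934 off drug and 14 in parental cells, the ratio was 68.1, with a 95% Clopper-Pearson interval of 40.4 to 125. On drug TIE1 was 9.18-fold below off-drug cells (−3.20 ± 0.17) and 7.29-fold above parental cells (2.87 ± 0.28, with 4.29 to 13.9 as the counting interval of the ratio). Its TPM values were less even than its CPM values, at 5.17, 4.13 and 2.45 TPM off drug, and its relative transcript length there was 1.18, 1.56 and 2.14. With limma on log2(TPM + 1) the difference on drug over parental was 0.44 and not called.

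ESAM (chromosome 11, 124752583 to 124762290, minus strand) was high off drug and low in both other states. It had 0.863, 0.565 and 0.699 CPM on drug, 15.7, 16 and 16.9 CPM off drug and 0.785, 1 and 1.23 CPM in parental cells. On-drug and parental libraries overlapped (−0.49 ± 0.23, not called, and called at −0.67 without on-drug replicate 1 or −0.66 without parental replicate 1). Off drug the level was 16.2-fold that of parental cells (4.02 ± 0.18), and on drug it was 22.7-fold below off-drug cells (−4.51 ± 0.18). In TPM, ESAM off drug (11.1 ± 0.415, SD, n = 3) was above TIE1 (3.92 ± 1.37) and near PDGFA (10.3 ± 0.22).

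Promoter windows for 7 of the 10 genes were in the RefSeq table used here (GRCh38.p14), and 3 are shown for their differing patterns. These are ANGPTL4 with its parental maximum, TIE1 with the largest off-drug excess over parental cells, and VEGFB with the flattest level in CPM. Each line gives the 250 bases before an annotated start, with capitals for matches to the motifs searched.
ANGPTL4, chr19:8363905-8364154, plus strand: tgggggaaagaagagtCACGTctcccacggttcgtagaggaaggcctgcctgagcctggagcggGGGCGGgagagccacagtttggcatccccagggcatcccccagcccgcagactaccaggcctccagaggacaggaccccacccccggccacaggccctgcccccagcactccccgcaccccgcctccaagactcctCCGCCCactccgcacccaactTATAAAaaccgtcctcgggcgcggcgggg
TIE1, chr1:43300732-43300981, plus strand: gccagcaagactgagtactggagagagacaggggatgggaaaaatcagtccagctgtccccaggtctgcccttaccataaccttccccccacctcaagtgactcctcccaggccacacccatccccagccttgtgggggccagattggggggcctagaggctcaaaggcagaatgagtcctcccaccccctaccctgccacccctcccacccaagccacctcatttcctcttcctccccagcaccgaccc
VEGFB, chr11:64234334-64234583, plus strand: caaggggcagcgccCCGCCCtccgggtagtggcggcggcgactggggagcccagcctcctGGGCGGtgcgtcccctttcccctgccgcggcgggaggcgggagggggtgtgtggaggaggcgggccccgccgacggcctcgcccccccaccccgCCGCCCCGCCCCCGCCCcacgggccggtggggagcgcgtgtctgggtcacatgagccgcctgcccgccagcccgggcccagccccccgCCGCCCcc

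The motifs were searched on both strands: the AP-1 site TGANTCA, the core of the hypoxia response element ACGTG, the E-box CACGTG (which contains that core), the GC box GGGCGG, the TEAD motif GGAATG, the ETS motif CCGGAAG and the TATA box TATAAA. The ANGPTL4 window held 1 hypoxia response core, 1 TATA box and 2 GC boxes at 68.8% GC. The TIE1 window held none of the 7 motifs at 61.6% GC, and the VEGFB window held 6 GC boxes, some of them overlapping, at 82.8% GC. Of 35116 promoter windows of the same length, 18.5% held the hypoxia response core, 10.7% the TATA box and 42.6% the GC box. The AP-1 site was in 6.57% of all windows, the E-box in 6.34%, the TEAD motif in 11.9% and the ETS motif in 8.52%. A match is a run of letters in this window, and binding was not measured.

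Counted together, 7 of the 10 genes were called higher off drug than in parental cells and 1 was called lower, where 28.4 and 26.6% of all genes tested were called in those directions. Their median log2 fold change was 1.29, against 0.00 for all genes. On drug against off drug, edgeR called 9 genes lower and 0 higher, where 31.2 and 31.4% of all genes were called lower and higher, with a median of −2.21 against 0.02. The number lower was 8 wherever the call of VEGFC was lost. The number higher was also 0 at an unadjusted p under 0.05 and with DESeq2, and 1 (VEGFB) with limma on log2(TPM + 1). On drug against parental, 3 were higher and 5 lower, where 33.4 and 32.9% of all genes were called, with a median of −0.60 against 0.02. These counts follow from how the genes were selected and are given as a description.

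**Figure D3:**
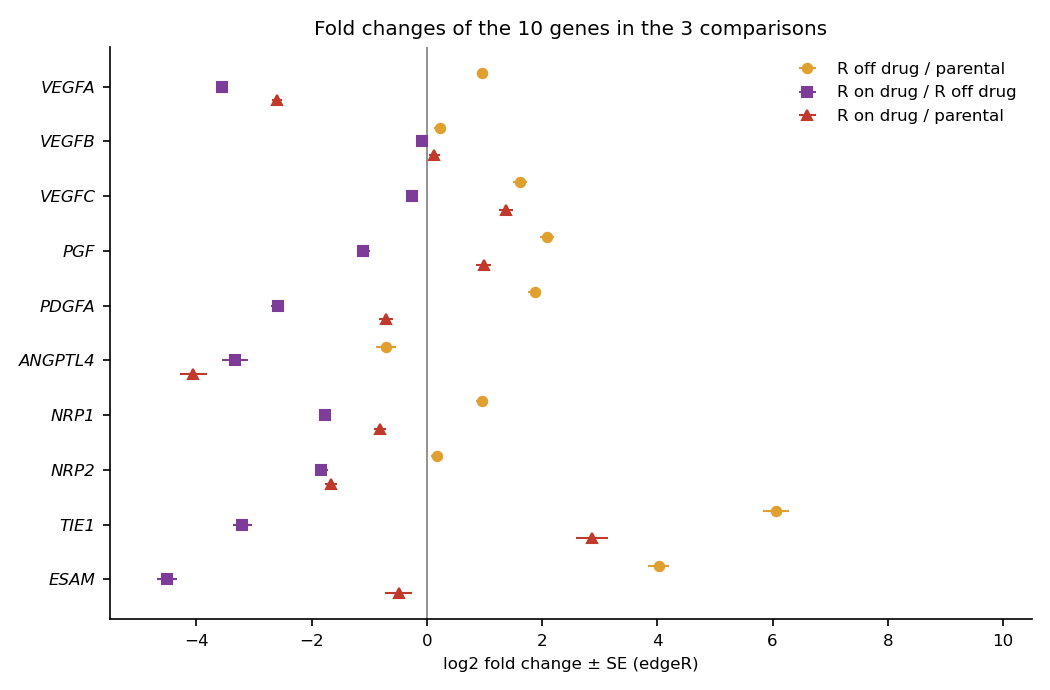
Log2 fold change ± SE from edgeR for the 10 genes, with resistant (R) cells off drug over parental (circles), R on drug over R off drug (squares) and R on drug over parental (triangles). The squares lie left of 0 for each gene under TMM, by −0.09 for VEGFB and −4.51 for ESAM, but with library size only VEGFB was at 0.16 and VEGFC at 0.00.

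The other genes of these pathways were counted from lists chosen with earlier results of these data known, with edgeR and Benjamini-Hochberg adjustment over all genes tested. Of all genes tested, 31.4% rose and 31.2% fell on drug against off drug, and 28.4% rose and 26.6% fell off drug against parental. List counts near these shares, here and in the paragraphs that follow, do not set a list apart from all genes. Of 10 further VEGF and PDGF ligand and receptor genes, 7 were tested, and FLT1, FLT4 and VEGFD were not. On drug against off drug 3 rose and 2 fell, and off drug against parental 3 rose and 2 fell, with medians of 0.54 and 0.19. KDR, the main signalling receptor of VEGF-A, was at 11.9 ± 2.18 CPM on drug, 20.5 ± 1.25 CPM off drug and 10.1 ± 1.7 CPM in parental cells (SD, n = 3 each). It was thus higher off drug than in parental cells (1.02 ± 0.14, adjusted p = 1.5e-05) and lower on drug than off drug (−0.78 ± 0.14, adjusted p = 0.00012). The PDGF ligand genes moved in opposite directions on drug against off drug: PDGFB fell (−2.75 ± 0.10, adjusted p = 3e-12) and PDGFD rose (2.85 ± 0.13, adjusted p = 3e-11). PDGFRB, outside the naming rule and named after its values were seen, was at 2.52 ± 0.371 CPM on drug, 2.02 ± 0.453 CPM off drug and 0.0124 ± 0.0215 CPM in parental cells. PDGFRA, the receptor of PDGF-A, was named in the same way and stayed low, at 0.376 ± 0.145 CPM on drug, 0.181 ± 0.194 CPM off drug and 0.0109 ± 0.0189 CPM in parental cells.

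Of 13 other angiopoietin, TIE and ANGPTL genes, 7 were tested. Off drug against parental 2 rose and 5 were not called, and on drug against off drug 1 rose and 3 fell (medians −0.17 and −0.74). TEK, the partner receptor of TIE1, was named after its values were seen, at 0.683 ± 0.315 CPM on drug, 0.844 ± 0.358 CPM off drug and 0.0748 ± 0.0398 CPM in parental cells. PTPRB, the endothelial phosphatase that acts on TEK, rose off drug against parental (0.92 ± 0.13, adjusted p = 2.6e-05) and fell on drug against off drug (−1.54 ± 0.14, adjusted p = 7e-08). ANGPT1, the activating ligand of TEK, rose on drug against off drug (0.82 ± 0.17, adjusted p = 0.0005).

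Of 13 genes for class 3 semaphorins, plexins and neuropilin partners, 12 were tested, and 5 rose and 4 fell on drug against off drug (median −0.19). Off drug against parental 3 rose and 5 fell, although the number that fell was 2 without off-drug replicate 1 and 3 without off-drug replicate 3, parental replicate 2 or parental replicate 3. PLXNA1, a plexin that signals with the neuropilins, fell on drug to 47.8 ± 4.7 CPM, against 206 ± 7.23 CPM off drug (−2.11 ± 0.10, adjusted p = 4.5e-11). SEMA3E, a semaphorin that binds PLXND1 without a neuropilin, was at 10.7 ± 2.24 CPM on drug, 2.56 ± 0.377 CPM off drug and 15.6 ± 0.238 CPM in parental cells. It rose on drug against off drug (2.06 ± 0.16, adjusted p = 1.5e-08) and was lower off drug than in parental cells (−2.62 ± 0.16, adjusted p = 2.1e-09).

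Among 9 genes for the processing of VEGF-C and PDGF precursors, 2 rose and 4 fell on drug against off drug (median 0.36). PCSK7, a proprotein convertase, rose on drug against off drug (0.87 ± 0.10, adjusted p = 1.3e-06) and off drug against parental (0.79 ± 0.10, adjusted p = 9.9e-06). The plasminogen activator genes fell on drug against off drug, with log2 fold changes of −2.29 ± 0.09 for PLAU (adjusted p = 3.4e-12) and −2.20 ± 0.10 for PLAT (adjusted p = 3.2e-11). Of 18 other angiogenic factors and inhibitors, 15 were tested, and 6 rose and 4 fell on drug against off drug, while 7 rose and 5 fell off drug against parental (medians 0.18 and 0.28). THBS1, a secreted inhibitor of angiogenesis, was at 238 ± 21.1 CPM on drug, 39.5 ± 0.852 CPM off drug and 32.4 ± 1.64 CPM in parental cells (2.59 ± 0.09 on drug over off drug, adjusted p = 7.6e-13). EDN1, the gene of the vasoconstrictor endothelin, rose on drug against off drug (3.37 ± 0.17, adjusted p = 1e-10), and CXCL8, an angiogenic chemokine gene, fell (−1.65 ± 0.14, adjusted p = 3.7e-08). CCN1 and CCN2, matricellular genes induced by YAP, were higher off drug than in parental cells (3.04 ± 0.09, adjusted p = 2.3e-12, and 3.06 ± 0.11, adjusted p = 1.5e-11). CCN1 was again higher on drug than off drug (0.53 ± 0.08, adjusted p = 5.1e-05), which sets it apart in order from VEGFA.

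Since VEGFA and ANGPTL4 are known hypoxia targets, 18 other hypoxia-induced genes were counted. On drug against off drug 13 fell and 1 rose, with a median of −0.76. The number that rose was 2 without on-drug replicate 1 or parental replicate 3. It was also 2 with upper-quartile factors, library size only, no filter or the stricter filter. Off drug against parental 10 fell and 3 rose (median −0.25), a comparison in which VEGFA was higher and ANGPTL4 lower. NDRG1, a stress-response gene, was at 60.6 ± 1.93 CPM on drug, 287 ± 6.04 CPM off drug and 149 ± 5.28 CPM in parental cells, the same order as VEGFA (−2.25 ± 0.07 on drug over off drug, adjusted p = 7e-13, and 0.95 ± 0.07 off drug over parental, adjusted p = 2.2e-08). STC2, a secreted glycoprotein gene, was at 21 ± 2.46 CPM on drug, 96 ± 7.43 CPM off drug and 193 ± 6.67 CPM in parental cells, the same order as ANGPTL4 (−2.19 ± 0.10 on drug over off drug, adjusted p = 1.9e-11). CA9, a carbonic anhydrase gene and textbook hypoxia marker, ran the other way, at 5.16 ± 0.888 CPM on drug, 2.28 ± 0.552 CPM off drug and 0.139 ± 0.0907 CPM in parental cells (1.18 ± 0.23 on drug over off drug, adjusted p = 0.00032). Oxygen in the cultures is not described in the labels.

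Of 9 genes of the hypoxia-inducible factor machinery, 2 rose and 3 fell on drug against off drug and 5 rose and 2 fell off drug against parental (medians −0.30 and 0.39). HIF1A, the oxygen-regulated subunit, was at 297 ± 20.7 CPM on drug, 866 ± 22.4 CPM off drug and 597 ± 72.6 CPM in parental cells (−1.55 ± 0.09 on drug over off drug, adjusted p = 8.4e-10, and 0.54 ± 0.09 off drug over parental, adjusted p = 0.00013). EGLN2, a prolyl hydroxylase that marks the factor for degradation, rose on drug against off drug (1.83 ± 0.10, adjusted p = 3.5e-10). Of 11 other PPAR target genes, 7 were tested, and 1 rose and 4 fell on drug against off drug (median −0.36). PDK4, a kinase that limits glucose oxidation, was at 1.19 ± 0.307 CPM on drug, 2.76 ± 0.142 CPM off drug and 7.68 ± 0.631 CPM in parental cells, in the order of ANGPTL4 (−1.21 ± 0.20 on drug over off drug, adjusted p = 8.4e-05, and −1.48 ± 0.18 off drug over parental, adjusted p = 4.7e-06). PLIN2, a lipid droplet coat gene, was instead highest off drug (1.55 ± 0.10 over parental, adjusted p = 2.3e-09).

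**Figure D4:**
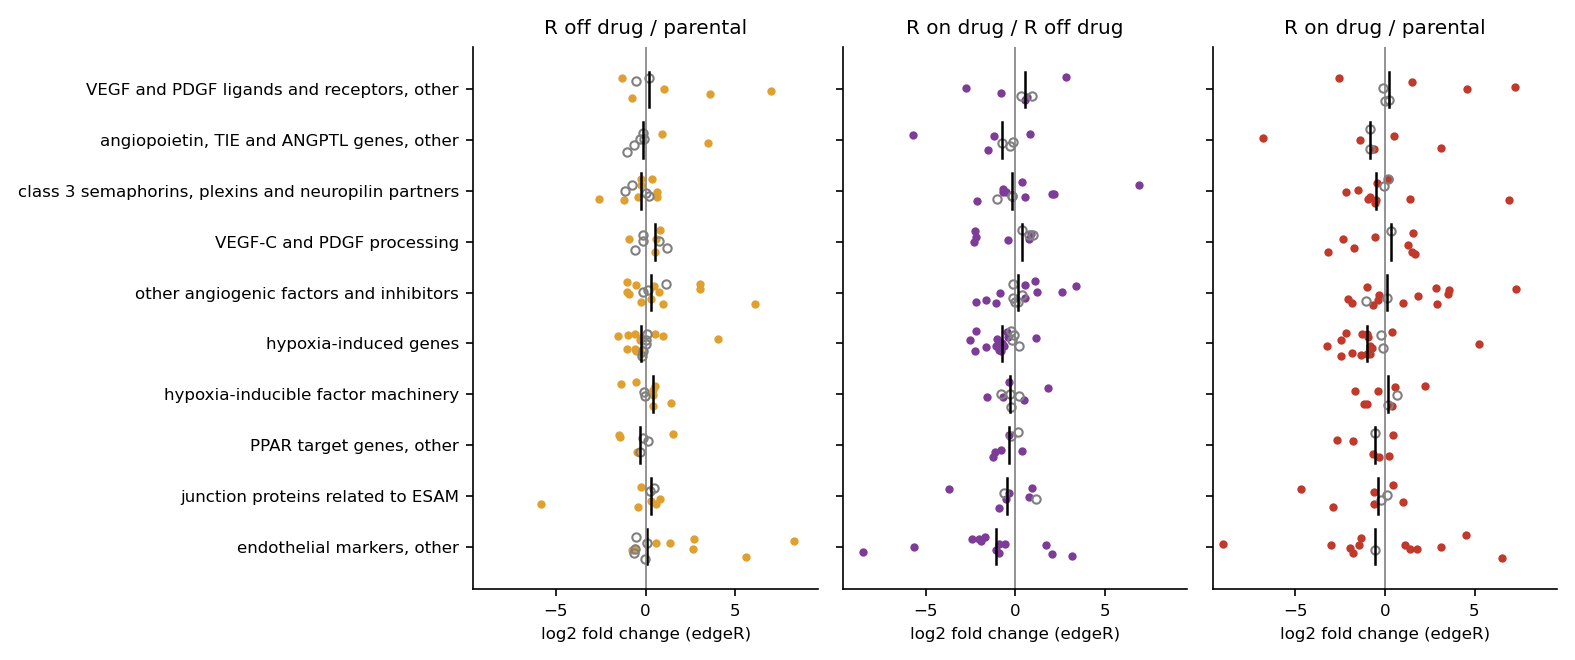
Log2 fold changes from edgeR of the other genes of each list in the 3 comparisons, with R for resistant, filled points for called genes, open points for genes not called and a line at the list median. The hypoxia-induced genes have medians of −0.76 (on drug over off drug) and −0.25 (off drug over parental), and points of genes at 0 in a whole state, such as ADGRL4 on drug, have no bounded fold.

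Other endothelial markers moved in both directions. Of 24 other endothelial markers 13 were tested, and off drug against parental 6 rose and 2 fell (median 0.08), while on drug against off drug 3 rose and 10 fell (median −1.06). The defining markers did not move together. PECAM1 was at 0.0269 to 0.155 CPM on drug, 4.67 to 5.39 CPM off drug and 0.782 to 0.841 CPM in parental cells. Like ESAM, it was highest off drug (2.64 ± 0.26 off drug over parental, adjusted p = 4.2e-07). PECAM1 was also lower on drug than in parental cells (−3.00 ± 0.40, adjusted p = 6.1e-06), a difference not called for ESAM. CDH5, the gene of VE-cadherin, was at 1.96 to 2.15 CPM on drug, 0.123 to 0.385 CPM off drug and 0.0327 to 0.361 CPM in parental cells, and VWF at 1.43 to 1.91, 0.317 to 0.417 and 0.521 to 0.687 CPM in the same states. Both rose on drug against off drug (3.14 ± 0.48, adjusted p = 3.2e-05, and 2.05 ± 0.32, adjusted p = 4e-05), opposite to TIE1 and ESAM. EMCN, SOX17, TAL1 and CD34 were at 0 in all 9 libraries. Summed over the 24 markers the level was 28.2 to 35.1 CPM on drug, 63.5 to 65.8 CPM off drug and 60.3 to 73.5 CPM in parental cells. EGFL7 and NOS3 were the largest parts of that sum and were highest in parental cells. EGFL7 was at 11.3 ± 1.68 CPM on drug, 16.7 ± 1.38 CPM off drug and 28.1 ± 4.88 CPM in parental cells. NOS3 was at 7.83 ± 0.731, 14.4 ± 1.48 and 21.6 ± 1.32 CPM in the same states. AQP1 instead had the order of TIE1, at 3.18 ± 0.362, 5.88 ± 0.441 and 0.895 ± 0.0852 CPM. In bulk RNA, fewer cells of a type and less RNA per cell cannot be told apart.

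**Figure D5:**
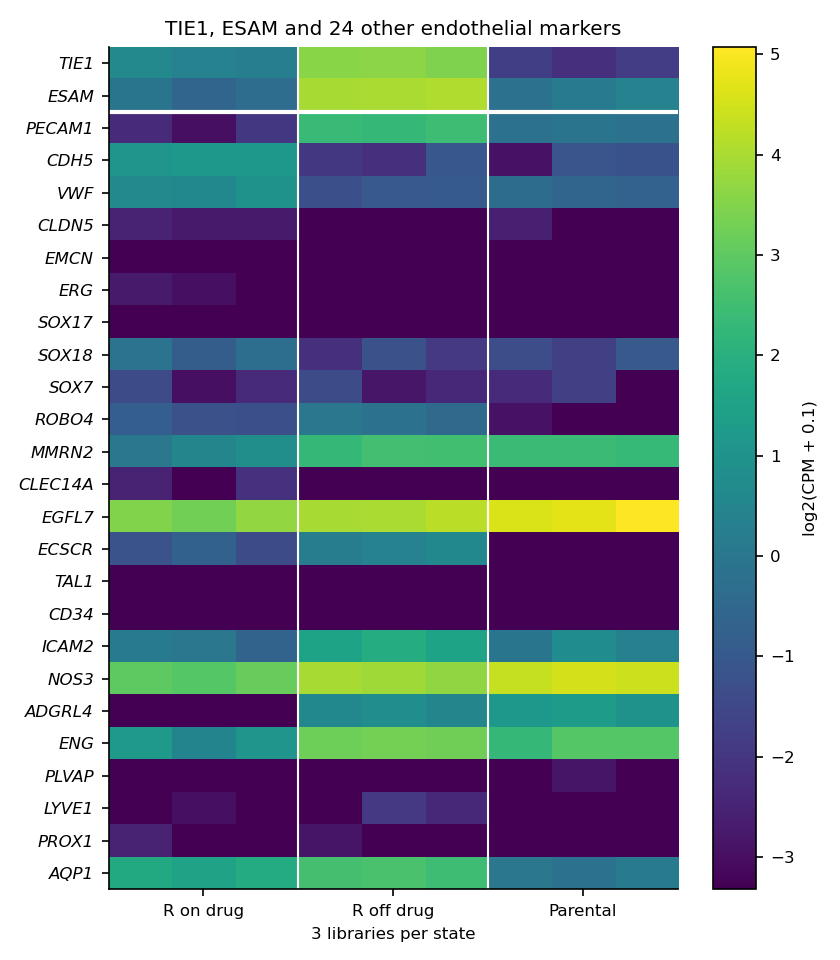
Heat map of log2(CPM + 0.1) for TIE1, ESAM and 24 other endothelial markers (rows) in 3 libraries each of resistant (R) cells on drug, resistant cells off drug and parental cells. PECAM1 is brightest off drug like ESAM, CDH5 and VWF are brightest on drug, and EMCN, SOX17, TAL1 and CD34 are at 0 throughout.

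Of 11 junction genes related to ESAM 8 were tested, and 2 rose and 4 fell on drug against off drug (median −0.43). VSIG1, an adhesion gene of the same immunoglobulin family, was at 2.43 ± 0.654 CPM on drug, 31.9 ± 1.69 CPM off drug and 18.4 ± 0.36 CPM in parental cells (−3.71 ± 0.14 on drug over off drug, adjusted p = 2.6e-12). CXADR, the coxsackievirus and adenovirus receptor gene, rose on drug against off drug (0.92 ± 0.08, adjusted p = 8.9e-08).

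Markers of other cell types moved between the states too, and their part in the levels of the 10 genes was not tested. Of 10 fibroblast markers 8 were tested and 7 rose on drug against off drug, with a summed level of 185 to 208 CPM on drug, 41.4 to 44.2 CPM off drug and 44.6 to 47.2 CPM in parental cells. LUM, FBLN1 and COL1A1 made up most of the on-drug sum, at 89.3 ± 18.9, 59.3 ± 7.6 and 43.9 ± 3.05 CPM. COL3A1, named after its values were seen, was at 4.68 ± 0.417 CPM on drug and at 0 in every off-drug and parental library. COL1A2, PDGFRA, FAP and THY1 had on-drug means of only 0.376 to 0.874 CPM, and DPT was at 0. Of 10 pericyte markers 7 were tested and 5 rose on drug against off drug, with sums of 113 to 134 CPM on drug, 43.7 to 48.7 CPM off drug and 84.5 to 103 CPM in parental cells. NOTCH3 made up most of that sum, at 73.6 ± 10.7 CPM on drug, 31.9 ± 2.85 CPM off drug and 82.8 ± 10.9 CPM in parental cells. MCAM, in contrast, was at 10.2 ± 0.401 CPM on drug, 2.58 ± 0.00665 CPM off drug and 0.104 ± 0.0905 CPM in parental cells. STEAP4 was also highest on drug, at 29.7 ± 1.06 CPM, against 1.48 ± 0.406 CPM off drug and 1.04 ± 0.342 CPM in parental cells. Its log2 fold change on drug over off drug was 4.34 ± 0.17 (adjusted p = 5.2e-12). The 12 leukocyte markers summed to 9.6 to 10.8 CPM on drug, 74.3 to 82 CPM off drug and 60.7 to 70.6 CPM in parental cells. Most of that was CD68, at 6.66 ± 0.597 CPM on drug, 73.6 ± 2.24 CPM off drug and 59.3 ± 3.79 CPM in parental cells, while the defining marker PTPRC was at or below 0.183 CPM and CD3D, MS4A1, TYROBP and AIF1 were at 0 throughout. The 10 epithelial markers, all tested, summed to 4686 to 5534 CPM on drug, 7598 to 7798 CPM off drug and 7742 to 9375 CPM in parental cells, and none was at 0 in any library. They moved in both directions on drug against off drug, where 2 rose and 5 fell. The number that rose was 4 without on-drug replicate 2, with upper-quartile factors or with library size only. KRT19 was at 816 ± 97.5 CPM on drug and 2251 ± 46 CPM off drug (−1.46 ± 0.11, adjusted p = 6.5e-09). MUC1 was at 55.9 ± 11.8 and 12.9 ± 0.648 CPM in the same states (2.12 ± 0.14, adjusted p = 1.9e-09).

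Genes with the most similar pattern were sought among 11934 genes, by the root mean square difference of centred log2 CPM over the 9 libraries. Nearest to VEGFA were ANTXR2 (difference 0.08), an anthrax toxin receptor gene, NT5E (0.09), the gene of the ectonucleotidase CD73, and TMCC3 (0.10). NT5E stood at 96 ± 8.84 CPM on drug, 1257 ± 55.9 CPM off drug and 576 ± 13 CPM in parental cells. Among those near ANGPTL4 were CAMK2N1 (0.18), an inhibitor of calmodulin-dependent kinase, and ISG20 (0.26), an exonuclease gene. CAMK2N1 stood at 19.4 ± 1.26 CPM on drug, 152 ± 4.35 CPM off drug and 266 ± 22.8 CPM in parental cells. TIE1 had looser neighbours, with MAG (0.35), a myelin glycoprotein gene, COL6A3 (0.52), a collagen chain gene, and INHBA (0.56), an activin subunit gene. MAG was at 3.63 ± 0.662 CPM on drug, 33.5 ± 2.29 CPM off drug and 0.914 ± 0.202 CPM in parental cells. Nearest to ESAM were CD22 (0.28), a B-cell lectin gene, KRT86 (0.39), a hair keratin gene, and FOSL1 (0.42), an AP-1 subunit gene. CD22 was at 9.8 ± 1.61 CPM on drug, 137 ± 1.65 CPM off drug and 11.5 ± 1.07 CPM in parental cells. Values with ± are means and SD of 3 libraries, and the likeness is a description over libraries that share their states.

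Exons of 4 of the 10 genes overlap an annotated gene on the opposite strand, and whether counting used strand is not stated in the labels. RAB11B-AS1 shares 1 base with ANGPTL4 and was at 0.483 CPM on drug, 0.281 CPM off drug and 0.36 CPM in parental cells. Those that overlap VEGFA, NRP1 and NRP2, by 188, 561 and 147 bases, were at or below 0.0643 CPM in every state.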

How the data were processed

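RNA was read as poly(A)-enriched, paired-end libraries, 3 per state. Per the submitters' processing notes, Salmon 0.14.1, FastQC 0.12.1 and bcl2fastq 2.17 are the tools named, and GRCh38.p13 is the build named. Annotation release and strand setting: not given in the sources used here. Gene-level estimated counts without depth scaling were deposited by the authors, together with TPM, which the authors scaled for depth and transcript length. The design assumed plain counts, so the estimated counts were rounded before each count test.

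Fold changes came from edgeR 4.0.16 (R 4.3.3) with all 9 libraries fitted at the same time, 1 mean for each state, TMM scaling and filterByExpr (minimum count 10, minimum total 15), with 6 residual degrees of freedom and a common biological coefficient of variation of 0.0946. Calls needed an adjusted p below 0.05 (Benjamini-Hochberg, 17307 genes), and rose or fell is written of called genes only. These words compare states and give no order in time. Dividing the size of the log2 fold change by the root of its F statistic gave the SE. Values within a gene are TMM-scaled CPM computed from the deposited counts, and levels between genes are the deposited TPM. Sums over marker lists, and the parts of those sums, are the exception. They are in CPM, which is not scaled for transcript length. Symbols and positions were matched by gene identifier (GENCODE 29), and promoters came from RefSeq.

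The 10 genes and all other lists were chosen with earlier results of these data known. The naming rule took the 10 genes, up to 3 called genes per list and comparison (largest change, mean log2 CPM not under 1), the defining markers, and the 3 genes most like each of VEGFA, ANGPTL4, TIE1 and ESAM (prior count 2); the text gives a selection. The steps were checked on simulated counts. No pair of libraries agreed within sampling noise (lowest chi-square per degree of freedom 5.114), so none was merged. Alternatives were RLE and upper-quartile factors, library size only, no filter, a stricter filter (1 CPM in 3 libraries), DESeq2 1.42.0, a replicate block, each library left out, fits restricted to the groups compared, and limma 3.58.1 on log2(TPM + 1) and log2(TPM + 0.1). Intervals are Clopper-Pearson at 95%.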

Additional observations from a re-analysis of the deposited data

How the results depend on the processing

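The 30 fold changes of the 10 genes were recomputed in 300 cases, of which 279 kept direction and call, 7 lost the call, 7 gained it and 7 changed sign. The sign changes all concerned on drug against off drug: VEGFB was 0.04 with upper-quartile factors, 0.16 with library size only and 0.32 and 0.33 with limma on log2(TPM + 1) and log2(TPM + 0.1), and VEGFC was 0.00 with library size only and 0.02 with limma on each TPM scale. With limma 1 of the 10 genes was called higher there, on each TPM scale. On the TPM scales the number of all genes called lower was 2541 and 2492 for off drug against parental, 2937 and 2860 for on drug against off drug, and 2764 and 2713 for on drug against parental, while the number called higher was 4543 and 4424, 5271 and 5119, and 6459 and 6345 in the same order. The cause of these changes was not tested. With library size only, 3585 of all genes were called lower and 7784 higher for on drug against off drug. Leaving out 1 library gave 270 further values, with 260 the same, 7 calls lost, 3 gained and 0 signs changed.

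No pairing by replicate number was visible, as deviations of same-numbered libraries correlated between −0.2 and 0.19. Such correlations cannot show whether same-numbered libraries shared a culture or a batch. With a replicate block, 8 of the 10 genes were called higher off drug than in parental cells, VEGFB (0.23) being added, and 8 were called lower on drug than off drug, VEGFC (−0.25) being lost. Of the counts of other lists, 78 of 168 moved on TPM, 7 of 84 with library size only, 9 of 84 with the stricter filter and 23 of 756 when 1 library was left out. Depth limits TIE1 in parental cells and ANGPTL4 on drug, and the lowest levels were read from few counts.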
